A study of Mus musculus with 13 samples.

Results

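The effect of the *Ctsl* genotype was examined in unstimulated M2 CD4SP thymocytes, in 9 of the 13 RNA-sequencing libraries of the series, 1 library per mouse. All libraries labelled as unstimulated were used, 5 from CtslΔTEC and 4 from control mice. Both groups were Lm54 TCR-transgenic mice on a Rag1-/- background, so their T cells carry a single transgenic receptor specific for a listeriolysin O peptide presented by I-Ab. In the CtslΔTEC mice a conditional *Ctsl* allele was deleted by Foxn1-cre, a driver active in thymic epithelial cells and not in thymocytes. The control mice are labelled *Ctsl* fl/fl (WT), whereas the study writes Ctsl+/+ for them. The mice were adults of both sexes, according to the study's methods. M2 cells were sorted as CD69-MHCI+ CD4SP thymocytes, so each library holds RNA of sorted thymocytes and not of the epithelium in which the allele was deleted.

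Thymocytes that express both CD4 and CD8 are tested on cortical thymic epithelial cells, and those whose TCR binds self peptide on MHC class II are positively selected into the CD4 lineage. Cathepsin L is a lysosomal protease that cortical epithelial cells use to degrade the invariant chain and to generate the peptides they present on MHC class II. After selection the cells lose CD8, express the CD4 lineage factor ThPOK, migrate to the medulla through CCR7, lose CD69, gain MHC class I and, in the M2 stage, acquire the receptors with which they leave the thymus. The comparison asks how the transcripts of these mature cells differ when the selecting epithelium lacked cathepsin L.

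The libraries held 25692380 to 39127833 estimated counts, and 12504 to 13503 genes had at least 10 counts in a library. Levels are given as CPM, counts scaled to library size by TMM, and *Ctsl* itself was at 13.5, 11.7, 18.4, 13.7 and 13.1 CPM in CtslΔTEC mice 1 to 5 and at 9.06, 6.48, 6.55 and 8.99 CPM in control mice 1 to 4, which does not check the labels because the deletion is in other cells. The first principal component, with 32.8% of the variance, separated the genotypes. Among the sorted markers, *Cd4* was at 1058 ± 23.3 CPM (SD, n = 5) in CtslΔTEC and 1167 ± 13.5 CPM (SD, n = 4) in control cells (log2 difference -0.14, adjusted p = 0.122, edgeR). The genotypes did not overlap for *Cd4* (p = 0.00794, two-sided exact permutation test), which DESeq2 called (-0.15, adjusted p = 0.00421). *Cd69* was at 53.9 ± 10.5 and 55.8 ± 5.13 CPM (adjusted p = 0.864, edgeR). Transcripts of the Y-linked RNA helicase *Ddx3y* were at 129, 211, 186, 187 and 180 CPM in the 5 CtslΔTEC mice, at 165 CPM in control mouse 3, and at 0.0594, 0.0360 and 0.0571 CPM in control mice 1, 2 and 4. Control mouse 3 is therefore the only control library with Y-linked transcripts, and its value is given with each main result. The libraries carry 2 dates in their file labels, the earlier one for CtslΔTEC mice 1 and 3 and control mouse 4 and the later one for the other 6 mice. The share of counts on transcripts with a retained intron was 5.59 to 6.59% in CtslΔTEC and 5.13 to 5.77% in control mice (p = 0.0635, two-sided exact permutation test). The share of counts on transcripts paired with no gene was 0.454 to 0.470% in CtslΔTEC and 0.479 to 0.489% in control mice, without overlap (p = 0.00794, the smallest the exact permutation test allows). The part of both shares in the results below was not tested.

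Markers of other cell types and of mature CD4SP thymocytes were summed as TPM, a per-length level. Of 12 tested markers of CD8-lineage and cytotoxic cells, *Cd8a*, *Cd8b1*, *Cst7* and *Prf1* were higher and *Nkg7*, *Ctsw*, *Klrd1* and *Runx3* lower in CtslΔTEC cells, and the granzyme genes *Gzmb* and *Gzmk* were listed at 0 or near it in both genotypes. The summed level of this list was 221 to 265 TPM in CtslΔTEC and 129 to 141 TPM in control mice. Of 9 tested markers of regulatory T cells, *Il2ra*, *Izumo1r* and *Ctla4* were higher and *Ikzf2* lower, with sums of 239.5 to 264 and 123 to 149 TPM. *Foxp3*, which defines that lineage, was at 0.690 to 1.18 CPM in CtslΔTEC and 0.628 to 1.14 CPM in control mice (log2 fold change 0.18, SE 0.24, adjusted p = 0.725, edgeR). Innate-like T cell markers summed to 5.98 to 11.6 and 6.37 to 8.68 TPM, with *Il2rb* higher and *Plac8* lower of 4 tested and with *Tbx21*, *Ifng*, *Il4* and *Il17a* at or near 0. No B cell marker of 7 tested passed the test, with sums of 374 to 398 TPM in CtslΔTEC and 360.1 to 387 TPM in control mice and with *Pax5* at or near 0. No erythroid marker of 5 tested passed either, but all 5 had a log2 fold change above 0, with a median of 0.61 and sums of 159.7 to 771 and 189 to 318 TPM. Of 7 myeloid markers *Csf1r* was higher and *Itgam* lower, with sums of 58.6 to 74.3 and 64.4 to 76.2 TPM. Of 4 thymic epithelial markers *Epcam* was higher and *Prss16* lower, with sums of 15.8 to 22.5 and 18.9 to 31.98 TPM, while *Foxn1*, *Krt5*, *Krt8*, *Krt14* and *Aire* were at or near 0. Of 8 markers of mature CD4SP thymocytes, 4 were lower, among them *Il7r*, *Ccr7* and *Zbtb7b*, and none was higher. Fewer cells of a type and less RNA per cell cannot be told apart in these libraries.

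Of 13149 genes tested, 1943 (14.8%) passed edgeR's quasi-likelihood test at an adjusted p (Benjamini-Hochberg) under 0.1 and are called here. Of these, 844 (6.42% of genes tested) were higher and 1099 (8.36%) lower in CtslΔTEC cells. Most differences were small, with a median size of 0.51 on the log2 scale among called genes. The log2 fold change was above 1 for 173 called genes and below -1 for 218. The genotypes did not overlap in CPM for 1509 of the called genes, against 1803 (13.7%) of all genes tested. With counts scaled by library totals, 56.8% of called genes were higher, against 43.4% after TMM scaling, and the median of all genes moved from 0.01 to 0.055.

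**Figure D1:**
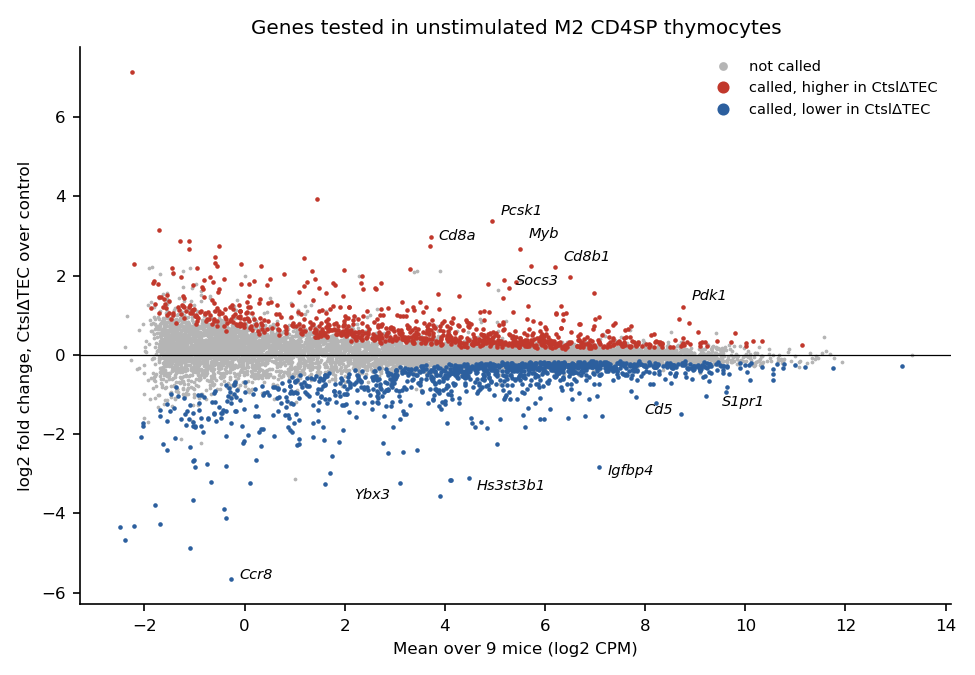
Log2 fold change of CtslΔTEC over control cells (vertical axis) against the mean log2 CPM over 9 mice (horizontal axis) for the 13149 genes tested, 1 point per gene, with called genes in colour. The 173 called genes above 1 and the 218 below -1 lie above and below the bulk of the genes, and *Ccr8*, at -5.65, and *Grm6*, the unlabelled point at 3.93, mark the ends among genes described in the text.

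The genes with the largest differences were named by a rule that took 12 in each direction among called genes whose genotypes did not overlap and whose mean was not under 1 log2 CPM. The transcripts furthest above control were those of *Grm6*, a metabotropic glutamate receptor (ENSMUSG00000000617; GRCm38 chromosome 11, 50850685 to 50866208). *Grm6* was at 9.22, 9.401, 11.3, 7.53 and 6.66 CPM in CtslΔTEC mice 1 to 5 and at 0.624, 0.576, 0.685 and 0.428 CPM in control mice 1 to 4. No control mouse exceeded 0.685 CPM and no CtslΔTEC mouse was under 6.66 CPM, a log2 fold change of 3.93 ± 0.21 (SE; adjusted p = 6.86e-07, edgeR). *Pcsk1* (chromosome 13, 75089826 to 75134861) encodes a convertase that cleaves prohormones. It was at 71.3, 109.9, 85.7, 93 and 90.3 CPM in CtslΔTEC mice and at 12.8, 10.4, 6.51 and 4.99 CPM in control mice, a log2 fold change of 3.37 ± 0.25 (SE; adjusted p = 9.5e-06, edgeR). *Myb* (chromosome 10, 21124935 to 21160984) encodes a transcription factor of thymocyte progenitors and double-positive cells. Its levels were 97.7, 108, 104, 113 and 101 CPM in CtslΔTEC and 21.1, 13.7, 13.8 and 16.6 CPM in control mice. The 5 CtslΔTEC mice lay close together and well above every control mouse, with a log2 fold change of 2.68 ± 0.13 (SE; adjusted p = 3.11e-07, edgeR). *Il2ra*, the high-affinity subunit of the IL-2 receptor, was at 6.72, 13.3, 9.09, 7.93 and 10.2 CPM in CtslΔTEC and at 2.67, 2.34, 2.06 and 2.34 CPM in control mice, a log2 fold change of 2.0 ± 0.197 (SE; adjusted p = 6.8e-05, edgeR).

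Less even differences were seen for *Art2b*, an ADP-ribosyltransferase of the T cell surface, and for *Abca1*, a transporter that exports cholesterol. CtslΔTEC mice 2 and 5 had 66.8 and 69.1 CPM of *Art2b*, the other 3 had 14.2 to 21.3 CPM, and the control mice had 4.46, 8.64, 3.96 and 2.597 CPM. *Abca1* was at 87.9, 142, 111, 121 and 129.8 CPM in CtslΔTEC mice, and control mice 1 and 3, at 43.8 and 36.9 CPM, lay between these and control mice 2 and 4, at 7.77 and 12.01 CPM. The remaining genes of this direction were the CD8 subunit genes *Cd8a* (log2 fold change 2.75) and *Cd8b1* (2.22), the neutral amino acid transporter gene *Slc6a19* (2.44), the tyrosine phosphatase gene *Ptpn14* (2.17), the spectrin gene *Sptb* (2.14) and *Osgin1* (2.12). *Slc6a19* and *Osgin1* were at low levels, with at most 6.52 and 5.44 CPM in any mouse.

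In the other direction, *Ybx3* (chromosome 6, 131364855 to 131388476), which encodes a cold-shock protein that binds DNA and RNA, was at 4.04, 2.93, 2.53, 3.01 and 3.23 CPM in CtslΔTEC and at 28.4, 25.6, 29.6 and 35.2 CPM in control mice. The highest CtslΔTEC mouse, at 4.04 CPM, lay far below the lowest control mouse, at 25.6 CPM, with a log2 fold change of -3.23 ± 0.14 (SE; adjusted p = 2.64e-07, edgeR). *Dapl1* had the largest drop among the 12, a log2 fold change of -3.57 ± 0.23 (SE; adjusted p = 2.96e-06, edgeR). It was at 4.19, 3.76, 4.37, 5.93 and 7.12 CPM in CtslΔTEC and at 60.2, 77.6, 66.9 and 37.8 CPM in control mice. *Ptgir*, the prostacyclin receptor, was at 7.5, 7.07, 4.52, 5.595 and 7.99 CPM in CtslΔTEC and at 50.4, 66.2, 64.6 and 52.8 CPM in control mice, a log2 fold change of -3.15 ± 0.16 (SE; adjusted p = 4.33e-07, edgeR). *Igfbp4*, which binds insulin-like growth factors, was the most abundant of these transcripts, at 47.9, 78.6, 48.5, 40.9 and 75.4 CPM in CtslΔTEC and 309.9, 494, 368 and 479 CPM in control mice. The highest CtslΔTEC mouse, at 78.6 CPM, lay far below the lowest control mouse, at 309.9 CPM, a log2 fold change of -2.82 ± 0.21 (SE; adjusted p = 1.07e-05, edgeR). Of the same size were the differences of 2 genes for glycan synthesis, *Hs3st3b1* (-3.10), a heparan sulfate sulfotransferase, and *St3gal5* (-2.99), which makes the ganglioside GM3, as well as the bicarbonate transporter gene *Slc4a4* (-3.25) and the myosin gene *Myo6* (-3.16). For *Myo6*, control mouse 3 was the lowest control, at 38.2 CPM against 61.9 to 81.0 CPM. *Cd163l1* (-2.55), the adhesion gene *Chl1* (-2.47), the phosphatase gene *Ppm1j* (-2.45) and *Klhl5* (-2.39) completed the 12.

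**Figure D2:**
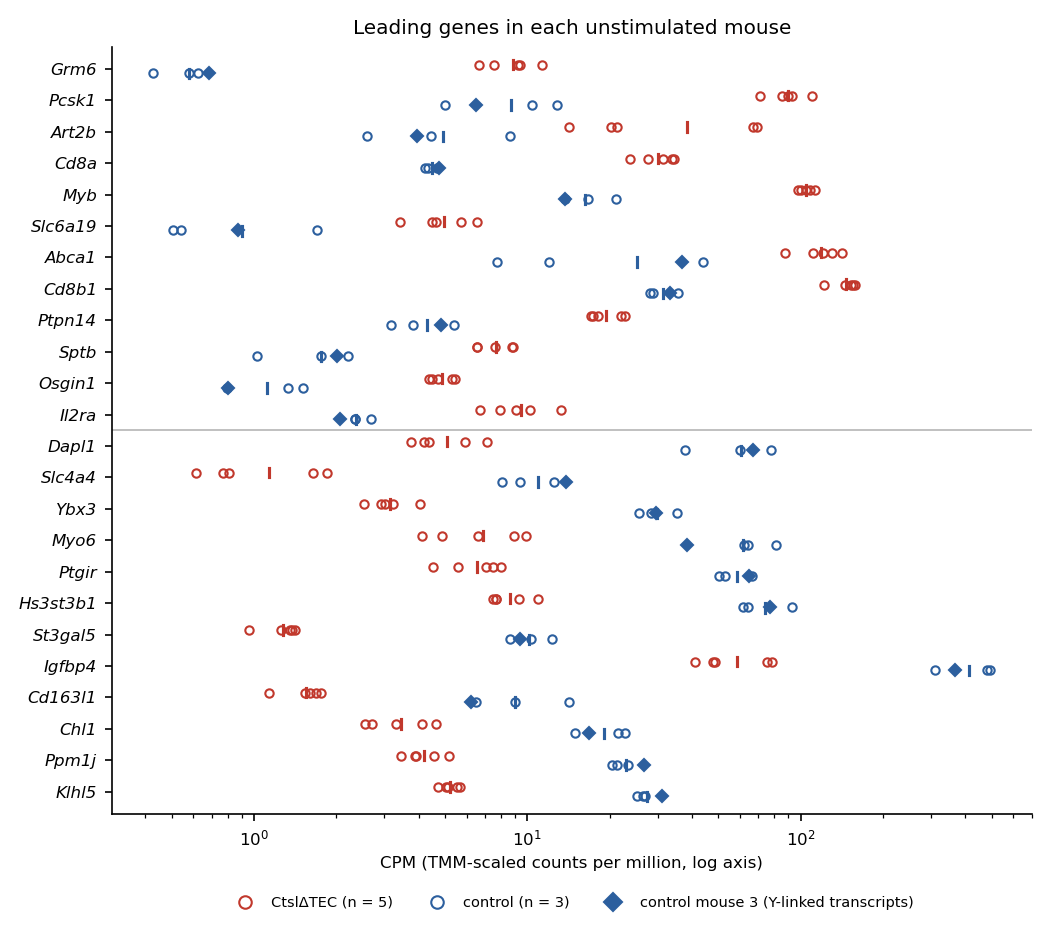
Levels in CPM (log axis) of the 24 leading genes in each of the 9 unstimulated mice, with 1 row per gene. Circles are mice, the filled diamond is control mouse 3, which has Y-linked transcripts, vertical ticks are group means, and the upper 12 genes were higher and the lower 12 lower in CtslΔTEC cells. The genes were chosen for genotypes that do not overlap, which fixes the side on which control mouse 3 lies.

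All 24 genes kept their direction when the Y-linked level entered the fit as a covariate, and 21 stayed called. In that fit the genotype term rests on control mouse 3 against the CtslΔTEC mice, and the naming rule had already placed control mouse 3 outside the CtslΔTEC range, so the kept direction follows from the choice of genes. The exceptions were *Art2b*, whose log2 fold change went from 2.98 to 3.18 (adjusted p = 0.255, edgeR), *Slc6a19*, from 2.44 to 2.41 (adjusted p = 0.130, edgeR), and *Abca1*, from 2.23 to 1.58 (adjusted p = 0.434, edgeR). In the other 3 fits that used the Y-linked level, *Art2b* alone of the 24 lost its call. The other comparison at hand is that of 2 further CtslΔTEC and 2 further control mice whose M2 cells had been stimulated for 4 h through the TCR and CD28, with 1 library with and 1 without Y-linked transcripts in each genotype. There 23 of the 24 genes had the same sign and 17 of them were called, against 1902 of 14236 genes (13.4%) called in all. *Pcsk1* was 4.48 higher, *Dapl1* was 4.01 lower and *Igfbp4* was 2.62 lower on the log2 scale in stimulated CtslΔTEC cells, whereas *Art2b* had a log2 fold change of -0.72 (adjusted p = 0.889, edgeR). *Grm6* (1.05, adjusted p = 0.286, edgeR) and *Il2ra* (0.16, adjusted p = 0.709, edgeR) did not pass after stimulation. In stimulated cells of both genotypes *Grm6* and *Art2b* were near the floor, at 0.128 to 0.666 and 0.0605 to 0.530 CPM.

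Of the genes named by the study outside these 24, *Tmie*, a gene of mechanotransduction in hair cells, was at 189, 143, 158, 175 and 169 CPM in CtslΔTEC and at 46.8, 27.96, 49.6 and 47.3 CPM in control mice, with no overlap and a log2 fold change of 1.96 ± 0.16 (SE; adjusted p = 1.57e-05, edgeR). *Slc16a5*, of the monocarboxylate transporter family, was at 109.5, 129.5, 119, 113 and 118 CPM in CtslΔTEC and at 45.6, 49.7, 49.7 and 54.8 CPM in control mice, also without overlap, and its log2 fold change was 1.24 ± 0.07 (SE; adjusted p = 1.19e-06, edgeR). After stimulation neither passed, with log2 fold changes of 0.75 (adjusted p = 0.223, edgeR) and 0.24 (adjusted p = 0.662, edgeR).

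Further transcripts were described in lists of genes by role. Among 15 tested genes of the double-positive stage, 8 were higher in CtslΔTEC cells and none was lower, a share of 53.3% called against 14.8% of all genes, and the median log2 fold change was 0.89 against 0.01. *Dntt*, the terminal transferase that adds nucleotides at receptor gene junctions, was at 70.2, 65.5, 90.4, 84.7 and 71.8 CPM in CtslΔTEC and at 27.7, 14.7, 20.8 and 22.3 CPM in control mice. Every CtslΔTEC mouse was above every control mouse, a log2 fold change of 1.84 ± 0.16 (SE; adjusted p = 3.47e-05, edgeR). *Ccr9*, the receptor for the thymic chemokine CCL25, was at 171, 209, 167, 166 and 205 CPM in CtslΔTEC and at 82.9, 111, 79.8 and 104 CPM in control mice, a log2 fold change of 0.96 ± 0.12 (SE; adjusted p = 0.0003, edgeR). *Rag1*, which opens receptor genes for recombination and whose locus is disrupted in these mice, was at 12.2, 4.63, 27.3, 16.2 and 5.303 CPM in CtslΔTEC and 5.26, 2.92, 3.81 and 2.85 CPM in control mice. CtslΔTEC mouse 2 lay within the control range, and the log2 fold change was 1.82 ± 0.48 (SE; adjusted p = 0.0331, edgeR). On the later date alone *Rag1* did not pass (1.12, adjusted p = 0.163, edgeR), and the median of the list was 0.54, with 8 members higher. Of the called members outside the naming rule, *Arpp21* and *Cd1d1* had log2 fold changes of 0.89 and 0.38. The 7 members not called ranged from -0.09 to 1.09, and *Rag2* was too low to test. With the Y-linked covariate 4 members stayed called, *Cd8a*, *Cd8b1*, *Dntt* and *Ccr9*. *Cd8a* and *Cd8b1* were also higher after stimulation (2.59 and 1.90 on the log2 scale, adjusted p = 8.77e-05 and 2.91e-05, edgeR), as was *Ccr9* (0.96, adjusted p = 0.0137, edgeR). *Dntt* (0.28, adjusted p = 0.726, edgeR) and *Rag1* (1.32, adjusted p = 0.506, edgeR) did not pass there.

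Joining segments of the TCR alpha chain were chosen for description after their values were seen. Of 58 tested *Traj* segments, 17 were higher in CtslΔTEC cells and none was lower, against 6.42% and 8.36% of all genes, with a median log2 fold change of 0.63 and group mean sums of 121 and 87.5 CPM. The delta constant gene *Trdc*, which lies upstream of the *Traj* segments in the same locus, was at 236 and 152 CPM and was called with a log2 fold change of 0.63. The alpha constant gene *Trac* (842 and 731 CPM) and the 2 beta constant genes (5509 and 4322 CPM) were not called. Reads of the transgene and of the unrearranged locus cannot be told apart in these counts.

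Of 20 lineage factors tested, 2 were higher and 5 lower (35.0% called, against 14.8% of all genes), with a median log2 fold change of -0.12. *Gata3*, which promotes the CD4 lineage, was at 75.3, 53.9, 63.5, 58.7 and 62.4 CPM in CtslΔTEC and at 99.8, 108, 112 and 119 CPM in control mice. The genotypes did not overlap, with a log2 fold change of -0.803 ± 0.09 (SE; adjusted p = 0.000176, edgeR). *Zbtb7b*, which encodes ThPOK, the factor that fixes the CD4 lineage, was at 317, 229, 275, 256 and 273 CPM in CtslΔTEC and at 355, 332, 404 and 417 CPM in control mice, a log2 fold change of -0.48 ± 0.098 (SE; adjusted p = 0.00818, edgeR). *Ikzf3*, which encodes Aiolos, was at 186, 186, 198, 172 and 182 CPM in CtslΔTEC and at 129.9, 125, 118 and 115 CPM in control mice, a log2 fold change of 0.598 ± 0.06 (SE; adjusted p = 0.000104, edgeR). *Ikzf1* (-0.27), *Runx1* and *Runx3* (-0.21) were the other members that were lower, and the 13 not called ranged from -0.18 to 0.39. *Myb*, *Ikzf3* and *Gata3* stayed called with the Y-linked covariate.

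The list of late maturation and egress genes had the highest share of called members of the 19 lists, 16 of 22 (72.7%, against 14.8% of all genes). Of its members 12 were lower and 4 higher in CtslΔTEC cells, and the median log2 fold change was -0.25. *Foxo1* and the Krüppel-like factor KLF2 direct the expression of egress and homing receptors in mature thymocytes. *Foxo1* was at 425, 354, 403, 381 and 361 CPM in CtslΔTEC and at 533, 568, 494 and 519.6 CPM in control mice, with no overlap and a log2 fold change of -0.46 ± 0.07 (SE; adjusted p = 0.00166, edgeR). *Il7r*, the alpha chain of the receptor for the survival cytokine IL-7, was at 37.1, 63.8, 36.3, 36.0 and 45.98 CPM in CtslΔTEC and at 108, 103, 74.3 and 85.8 CPM in control mice, and control mouse 3 was the lowest control. Its log2 fold change was -1.08 ± 0.17 (SE; adjusted p = 0.00193, edgeR). *S1pr4*, a receptor for sphingosine-1-phosphate, was at 212, 146, 170.3, 176 and 181 CPM in CtslΔTEC and at 244, 250.1, 307 and 265 CPM in control mice, a log2 fold change of -0.59 ± 0.103 (SE; adjusted p = 0.00344, edgeR), and control mouse 3 was the highest of all mice. *Itgb7*, an integrin subunit for homing to the gut, was at 618, 529, 503, 531 and 591 CPM in CtslΔTEC and at 686, 737, 801 and 807 CPM in control mice, a log2 fold change of -0.45 ± 0.08 (SE; adjusted p = 0.00344, edgeR).

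The other lower members included *Slfn1*, *Rasgrp2*, *Ccr7*, *S1pr1*, *Klf2*, *Klf3* and *Emp3*. *S1pr1* (-0.65), the receptor required for exit from the thymus, *Ccr7* (-0.37) and *Klf2* (-0.71) were looked up after their values were seen. *S1pr1* was at 408 to 600.1 CPM in CtslΔTEC and 706 to 914 CPM in control mice, without overlap, whereas for *Klf2* CtslΔTEC mouse 1, at 455 CPM, lay within the control range of 383 to 582 CPM. The 4 members that were higher were the MHC class I genes *H2-Q7* (1.06), *H2-K1* (0.35) and *H2-D1* (0.35) and their light chain *B2m* (0.34). For MHC class I the study's methods list an antibody to H-2Kb, the product of *H2-K1*. Members of the list were called in both directions, and the 6 members not called ranged from -0.16 to 0.20. With the Y-linked covariate 5 members were called, *S1pr1*, *S1pr4*, *Ccr7*, *Itgb7* and *Rasgrp2*, whereas *Foxo1* (-0.35, adjusted p = 0.211, edgeR) and *Il7r* (-0.79, adjusted p = 0.236, edgeR) were not. In stimulated cells *S1pr4* (-1.20), *Itgb7* (-1.05), *Foxo1* (-0.61) and *Il7r* (-1.72) were also lower and called.

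Promoters of the lower members of this list were read from RefSeq for the KLF core motif CACCC, searched on both strands, because *Klf2* and *Klf3* were among them. A window of 250 bases before to 50 bases after the start was at hand for 9 of these 12 genes, and 6 of them held the motif, *Klf2*, *Klf3*, *S1pr4*, *Itgb7*, *Rasgrp2* and *Emp3*. The 250 bases before the start of *Klf3* and *Itgb7* are printed from 5′ to 3′ on the gene's strand (GRCm38.p6, chr5:64803271-64803520 on the plus strand and chr15:102231936-102232185 on the minus strand), since these hold the most matches, 5 and 4. Capitals mark CACCC or GGGTG, its reverse complement.
Klf3: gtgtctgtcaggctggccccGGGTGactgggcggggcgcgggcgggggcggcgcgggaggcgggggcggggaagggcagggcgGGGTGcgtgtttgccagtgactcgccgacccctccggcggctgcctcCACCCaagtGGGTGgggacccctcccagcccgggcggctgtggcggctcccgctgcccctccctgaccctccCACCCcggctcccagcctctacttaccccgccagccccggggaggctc
Itgb7: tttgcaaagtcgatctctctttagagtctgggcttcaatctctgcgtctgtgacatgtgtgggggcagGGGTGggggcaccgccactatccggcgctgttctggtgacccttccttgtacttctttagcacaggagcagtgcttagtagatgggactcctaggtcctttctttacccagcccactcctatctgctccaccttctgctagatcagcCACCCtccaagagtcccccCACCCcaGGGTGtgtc
The motif is common in such windows. It was found in 61.3% of 9826 windows of tested genes, 63.4% of 598 windows of genes called higher, 67.6% of 862 windows of genes called lower and 56.7% of all 27025 windows. The E protein motif CAGCTG (14.5%, 15.4% and 15.2% of the first 3 groups, 16.1% of all windows), the RUNX motif TGTGGT (12.8%, 12.5% and 13.3%, 16.9% of all) and the NR4A motif AAAGGTCA (0.855%, 1.34% and 0.928%, 1.46% of all) were searched in the same way, as was the EGR motif in the forms GCGGGGGCG and GCGTGGGCG (6.22%, 6.52% and 8.47%, 3.49% of all). These shares describe letters in the windows and not binding.

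Among chemokine receptors, integrins and other homing receptors, 8 of 21 tested members were lower and 2 higher (47.6% called, against 14.8% of all genes). The median log2 fold change was 0.00. *Ccr8*, a chemokine receptor of recently selected and regulatory T cells, had 1 to 6 counts in each CtslΔTEC mouse and 90, 213, 139 and 350 counts in control mice 1 to 4. *Cd44*, the hyaluronan receptor, was at 34.4, 22.7, 28.2, 26.9 and 25.3 CPM in CtslΔTEC and at 54.1, 56.6, 51.1 and 59.5 CPM in control mice, a log2 fold change of -1.01 ± 0.11 (SE; adjusted p = 0.000116, edgeR). *Ccr4*, the receptor for CCL17 and CCL22 that guides selected thymocytes to the medulla, was at 5.65, 7.43, 5.29, 3.81 and 7.22 CPM in CtslΔTEC and at 12.98, 19.3, 14.1 and 16.95 CPM in control mice, with no overlap and a log2 fold change of -1.42 ± 0.19 (SE; adjusted p = 0.000496, edgeR). *Itgb7*, *Selplg*, *Ccr7* and *S1pr1* were also among the lower members, and *Ccr9* and the integrin gene *Itga4* (0.44) were higher. With the Y-linked covariate 8 of the 10 called members stayed called, the most of the lists described here.

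**Figure D3:**
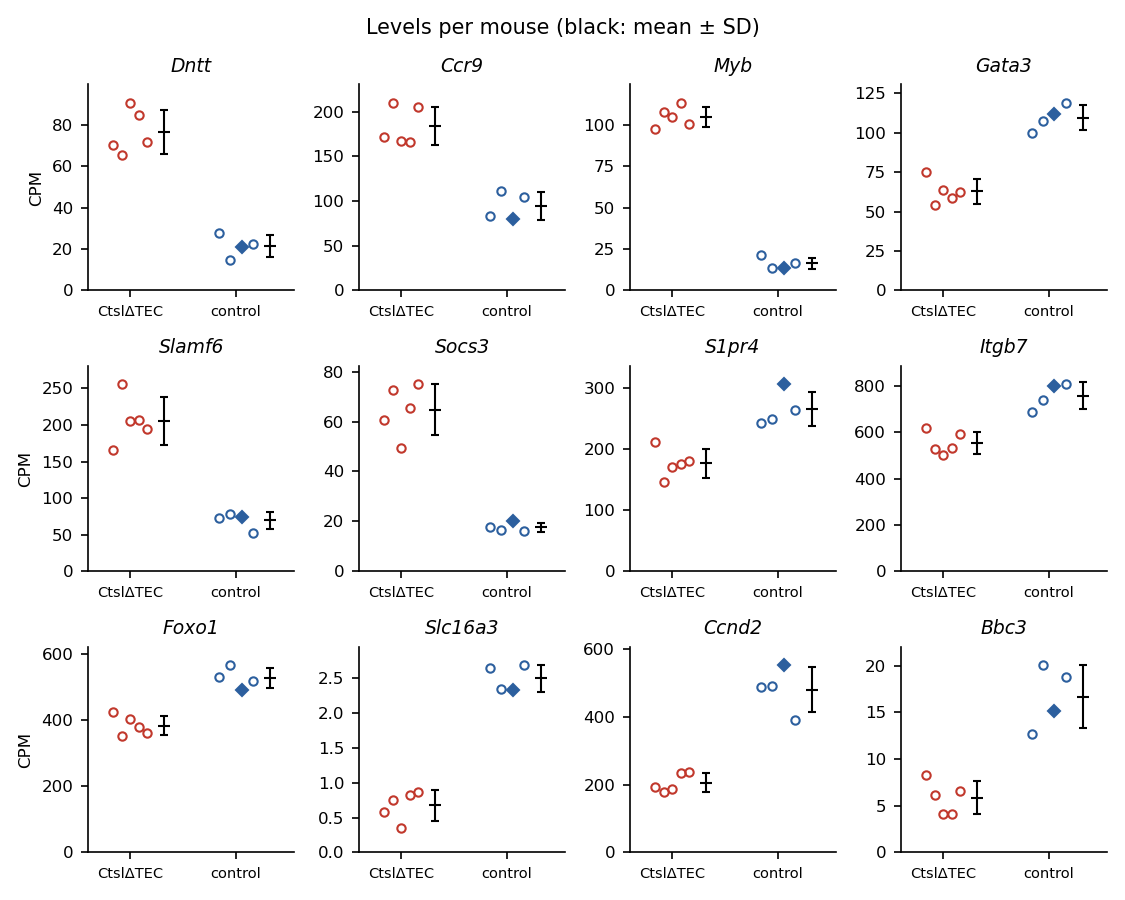
Levels in CPM of 12 list members in each unstimulated mouse, 1 panel per gene with a linear axis from 0. Circles are mice, the filled diamond is control mouse 3, and the black marks are the mean ± SD of 5 CtslΔTEC and 4 control mice. The genotypes do not overlap in any panel.

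Genes of recently signaled, semimature thymocytes were called in 7 of 22 cases (31.8%, against 14.8% of all genes), with 5 lower and 2 higher. Their median log2 fold change was -0.14, which was -0.03 with the Y-linked covariate. *Itm2a*, induced during positive selection, was at 149.5, 197, 154, 142 and 164 CPM in CtslΔTEC and at 257, 358, 267 and 331 CPM in control mice, a log2 fold change of -0.91 ± 0.12 (SE; adjusted p = 0.000462, edgeR). *Ikzf2*, which encodes Helios, was at 3.83, 2.99, 4.33, 3.54 and 3.48 CPM in CtslΔTEC and at 7.099, 6.26, 4.95 and 5.65 CPM in control mice (log2 fold change -0.72, adjusted p = 0.00862, edgeR). *Cd200* and the TCR-induced factor gene *Irf4* (-0.96) were also lower and *Nr4a3* was higher. *Nr4a1*, an early target of TCR signals, was at 107, 50.3, 55.9, 32.9 and 45.96 CPM in CtslΔTEC and at 54.5, 57.2, 51.8 and 134 CPM in control mice. The 2 highest values were those of CtslΔTEC mouse 1 and control mouse 4, both of the earlier date, and the gene did not pass (log2 fold change -0.35, adjusted p = 0.610, edgeR). Immediate-early and stress genes were called in 3 of 19 cases (15.8%, against 14.8% of all genes), *Btg1* (0.30), *Hsph1* (-0.72) and *Hspa1a*. On the later date alone 11 of them were called, 10 lower and 1 higher, against 14.7% of all genes, and the median of the list went from -0.01 to -0.32. With date as a factor 7 were lower and 1 higher, against 20.6% of all genes, with a median of -0.27. The median went the other way with the Y-linked covariate, to 0.37, and no member was called. *Hspa1a*, an inducible HSP70 gene, rested on control mouse 1, with 32.4 CPM against at most 2.30 CPM in any other mouse. Without that mouse its log2 fold change went from -4.86 to -1.78 and 1 member of the list was called, and with the Y-linked covariate its direction reversed (1.47).

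Attenuators of TCR signaling were called in both directions, with 5 of 27 higher and 4 lower (33.3% called, against 14.8% of all genes). Their median log2 fold change was -0.09. *Cd5*, a surface inhibitor whose level follows the strength of self-recognition, was at 160.1, 189, 156, 147 and 167 CPM in CtslΔTEC and at 279, 411, 363 and 328 CPM in control mice. The genotypes did not overlap, a log2 fold change of -1.08 ± 0.11 (SE; adjusted p = 7.51e-05, edgeR). The related receptor gene *Cd6* was at 238, 218, 235, 193 and 217 CPM in CtslΔTEC and at 316, 402, 382 and 361 CPM in control mice, a log2 fold change of -0.73 ± 0.08 (SE; adjusted p = 0.000196, edgeR). The phosphatase gene *Ptpn7* (-0.30) and the kinase gene *Csk* were the other members that were lower. The phosphatase gene *Ptpn22* (0.39), the inhibitory receptor genes *Ctla4* (1.66) and *Lag3*, the ubiquitin ligase gene *Cbl* and the adaptor gene *Lax1* were higher. Among the inhibitory receptors named by the study, *Pdcd1* (log2 fold change -0.09, adjusted p = 0.817, edgeR) and *Btla* (-0.39, adjusted p = 0.165, edgeR) did not pass, and their genotypes overlapped. The study measured PD-1 and BTLA protein by flow cytometry and reports both as reduced, which is a measure other than transcript level. With date as a factor *Btla* was called lower (-0.34, adjusted p = 0.0523, edgeR) and 8 members of the list were lower in place of 4, whereas on the later date alone *Btla* did not pass (-0.29, adjusted p = 0.185, edgeR). *Cd5*, *Cd6* and *Ctla4* stayed called with the Y-linked covariate.

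Of 26 genes of the TCR complex and its proximal signaling, 1 was higher and 5 were lower (23.1% called, against 14.8% of all genes), and the median log2 fold change was 0.02. With library totals as the scaling 4 were higher and 4 lower, and with date as a factor 4 were higher and 5 lower. The lower members included *Cd2* (-0.38), the adhesion receptor for CD48, *Malt1* (-0.40), which links the TCR to NF-kB, *Rasgrp1* (-0.38), which activates Ras, and the kinase gene *Fyn*. *Cd2* was at 419, 451, 413, 448 and 474 CPM in CtslΔTEC and at 514, 575, 579 and 627 CPM in control mice, and the genotypes did not overlap. The 20 members not called ranged from -0.17 to 0.33, and no member was called with the Y-linked covariate. Of 20 NF-kB subunits, inhibitors and targets, 4 were higher, *Nfkbie* (0.30), *Bcl3* (0.66), *Nfkb2* (0.30) and *Birc3* (0.20), with adjusted p of 0.0419 to 0.0859 (edgeR). None was called with the Y-linked covariate, where *Nfkbie* was at 0.21 (adjusted p = 0.675, edgeR), *Bcl3* at 0.82, *Nfkb2* at 0.32 and *Birc3* at 0.25 and the median of the list went from 0.08 to 0.15. Of the list, 2 members were called on the later date alone or without CtslΔTEC mouse 5. Without control mouse 1 or control mouse 3, 1 was called.

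Among costimulatory receptors and members of the TNF receptor family, 6 of 22 were higher and 4 lower (45.5% called, against 14.8% of all genes). The median log2 fold change was 0.18. *Slamf6*, a homophilic receptor of the SLAM family, was at 166, 256, 206, 207 and 194 CPM in CtslΔTEC and at 72.98, 78.8, 73.9 and 52.5 CPM in control mice. The lowest CtslΔTEC mouse had 166 CPM and the highest control mouse 78.8 CPM, a log2 fold change of 1.56 ± 0.14 (SE; adjusted p = 3.47e-05, edgeR), and it was also higher after stimulation (1.24, adjusted p = 0.00189, edgeR). *Izumo1r*, which encodes folate receptor 4, was at 117, 119.5, 103, 117 and 136 CPM in CtslΔTEC and at 44.9, 60.02, 65.8 and 56.8 CPM in control mice, a log2 fold change of 1.06 ± 0.11 (SE; adjusted p = 9.58e-05, edgeR). *Tnfrsf25*, the death receptor DR3, was lower (-0.59, adjusted p = 0.00189, edgeR). *Cd226* (0.73), *Ctla4*, *Lag3* and *Tnfrsf1a* were higher, and *Cd40lg* (-0.47), *Cd2* and *Cd200* lower.

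Cytokine receptors and their JAK-STAT and SOCS partners were called in 10 of 29 cases (34.5%, against 14.8% of all genes). There were 5 in each direction, with a median log2 fold change of 0.01. *Socs3*, an inhibitor of receptors that signal through gp130, was at 60.4, 72.7, 49.6, 65.6 and 74.9 CPM in CtslΔTEC and at 17.6, 16.4, 20.1 and 16.2 CPM in control mice. The lowest CtslΔTEC mouse had 49.6 CPM and the highest control mouse 20.1 CPM, a log2 fold change of 1.88 ± 0.13 (SE; adjusted p = 4e-06, edgeR). *Il6ra*, the IL-6 receptor, was at 229, 207, 213, 244 and 251 CPM in CtslΔTEC and at 382, 413, 387 and 339 CPM in control mice, a log2 fold change of -0.73 ± 0.08 (SE; adjusted p = 0.000116, edgeR). *Il10ra*, the IL-10 receptor, had a log2 fold change of -0.78 ± 0.09 (SE; adjusted p = 0.000176, edgeR). These 3 genes moved the same way after stimulation, with log2 fold changes of 1.76, -0.50 and -1.398. *Il2ra*, *Il2rb*, *Stat5b* and *Cish* were higher, and *Il7r*, *Ifnar1* and *Il2rg*, the common gamma chain, were lower.

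Of 14 BCL2 family genes, 5 were higher and 1 was lower (42.9% called, against 14.8% of all genes). *Bbc3*, which encodes the death activator PUMA, was the lower member, at 8.33, 6.18, 4.102, 4.12 and 6.61 CPM in CtslΔTEC and at 12.7, 20.04, 15.2 and 18.8 CPM in control mice, a log2 fold change of -1.498 ± 0.21 (SE; adjusted p = 0.000862, edgeR). *Bcl2l11*, which encodes BIM, the BH3-only protein of thymocyte deletion, was at 82.3, 72.2, 78.9, 77.9 and 69.96 CPM in CtslΔTEC and at 61.2, 51.3, 50.2 and 48.6 CPM in control mice, a log2 fold change of 0.53 ± 0.08 (SE; adjusted p = 0.00141, edgeR). *Bmf* (1.12), *Bid* (0.41), *Bcl2a1b* and *Bcl2a1d* (1.06) were the other members that were higher. *Bcl2a1b* and *Bcl2a1d* are near-identical copies, so their counts are uncertain. The survival gene *Bcl2* did not pass (log2 fold change -0.23, adjusted p = 0.251, edgeR). With the Y-linked covariate, *Bbc3* and *Bcl2l11* stayed called, and the median of the list went from 0.08 to 0.21.

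Interferon-stimulated genes were called in 7 of 27 cases (25.9%, against 14.8% of all genes), with *Ly6e* (0.81), *Igtp* and *Gbp3* higher and *Samhd1* (-1.37), *Ly6c1* (-1.30), *Ly6a* (-0.65) and *Irf9* lower, and their median log2 fold change was -0.02. That median was 0.25 with the Y-linked covariate and 0.13 on the later date alone. *Samhd1*, a nucleotide hydrolase that restricts viruses, was at 45.2, 47.6, 35.7, 34.9 and 64.4 CPM in CtslΔTEC and at 111, 135, 105.9 and 118 CPM in control mice, with no overlap. *Ly6e* was at 206, 253, 225, 185 and 219.6 CPM in CtslΔTEC and at 124, 125, 124 and 122 CPM in control mice, and the control mice lay close together. Of 13 GIMAP and Schlafen genes, 4 were higher and 3 lower (53.8% called, against 14.8% of all genes). *Gimap7* (0.68), *Gimap8* (0.32), *Gimap5* (0.29) and *Slfn8* were higher and *Slfn3* (-0.89), *Slfn1* (-0.32) and *Gimap4* (-0.31) lower. GIMAP GTPases support the survival of mature T cells, and members of this list lie next to each other in gene clusters and share sequence. *Ly6e*, *Samhd1*, *Igtp*, *Gimap7* and *Slfn3* stayed called with the Y-linked covariate, and the other called members of both lists did not. Of those that did not, *Ly6a* went from -0.65 to -0.62, *Gimap8* from 0.32 to 0.36, *Slfn1* from -0.32 to -0.26 and *Ly6c1* from -1.30 to -0.66 on the log2 scale.

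Genes of glycolysis, glucose transport and hypoxia were called in 15 of 30 cases (50%, against 14.8% of all genes). Of these, 14 were lower and 1 higher, and the median log2 fold change of the list was -0.22. *Pdk1*, a kinase that inhibits pyruvate dehydrogenase, was the member that was higher, at 520.2, 691, 625, 666 and 669 CPM in CtslΔTEC and 286, 307, 253 and 245 CPM in control mice (log2 fold change 1.22). *Slc16a3*, the lactate exporter MCT4, was at 0.573, 0.746, 0.345, 0.83 and 0.871 CPM in CtslΔTEC and at 2.64, 2.34, 2.32 and 2.68 CPM in control mice, a log2 fold change of -1.87 ± 0.24 (SE; adjusted p = 0.000417, edgeR). *Aldoc*, an aldolase isoform, was at 0.469, 0.716, 0.537, 0.523 and 0.436 CPM in CtslΔTEC and at 2.73, 2.48, 1.33 and 2.11 CPM in control mice, a log2 fold change of -2.02 ± 0.25 (SE; adjusted p = 0.000334, edgeR). *Ldha*, lactate dehydrogenase A, was at 389, 380.3, 446, 414 and 403 CPM in CtslΔTEC and at 591, 590.1, 602 and 679 CPM in control mice and did not overlap between genotypes. *Pkm* (-0.50), *Pfkl*, *Aldoa*, *Eno1*, *Pgam1*, *Tpi1*, *Gpi1*, *Pgk1*, the glucose transporter gene *Slc2a1* and the hypoxia targets *Ankrd37* and *P4ha1* were the other lower members. *Tpi1* was at 0.461 to 1.59 CPM in CtslΔTEC and 1.41 to 8.25 CPM in control mice, with overlap. With the Y-linked covariate *Pdk1*, *Ldha*, *Slc16a3* and *Aldoc* stayed called. With library totals as the scaling 12 members were lower and 1 higher.

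Of 22 cholesterol synthesis genes, 4 were lower and 1 higher (22.7% called, against 14.8% of all genes), with *Srebf2* (-0.37), which encodes the factor that drives the pathway, *Dhcr7* (-0.28) and *Sqle* among the lower and *Insig1* (0.26), which retains that factor, higher. With the Y-linked covariate 1 member was called, without CtslΔTEC mouse 5 or control mouse 2 there were 2, and without CtslΔTEC mouse 2 or 4 there were 3. Cell cycle genes were called in 2 of 22 cases (9.09%), against 14.8% of all genes. *Ccnd2*, cyclin D2, was at 193, 179, 187, 235 and 238 CPM in CtslΔTEC and at 489, 491, 553 and 392 CPM in control mice, a log2 fold change of -1.22 ± 0.12 (SE; adjusted p = 4.9e-05, edgeR), and *Mcm5*, a subunit of the replicative helicase, was higher (0.46). Without CtslΔTEC mouse 1, 4 members were called. Of 33 translation factors, 7 were lower and none was higher (21.2% called, against 14.8% of all genes). In all, 30 had a log2 fold change below 0, with a median of -0.13. *Eef2* (-0.32), *Eif3i* (-0.33), *Eif3f* (-0.25), *Eef1b2* (-0.29), *Eef1a1* (-0.27), *Eef1g* and *Eif4a1* were called, and none of them with the Y-linked covariate, where the median was -0.07 and *Eef2* was at -0.24, *Eif3i* at -0.28, *Eif3f* at -0.17 and *Eef1b2* at -0.12. On the later date alone 4 were called, and without control mouse 2 there were 3. With DESeq2 9 were lower, and with date as a factor 11 were, in a fit that called 20.6% of all genes.

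**Figure D4:**
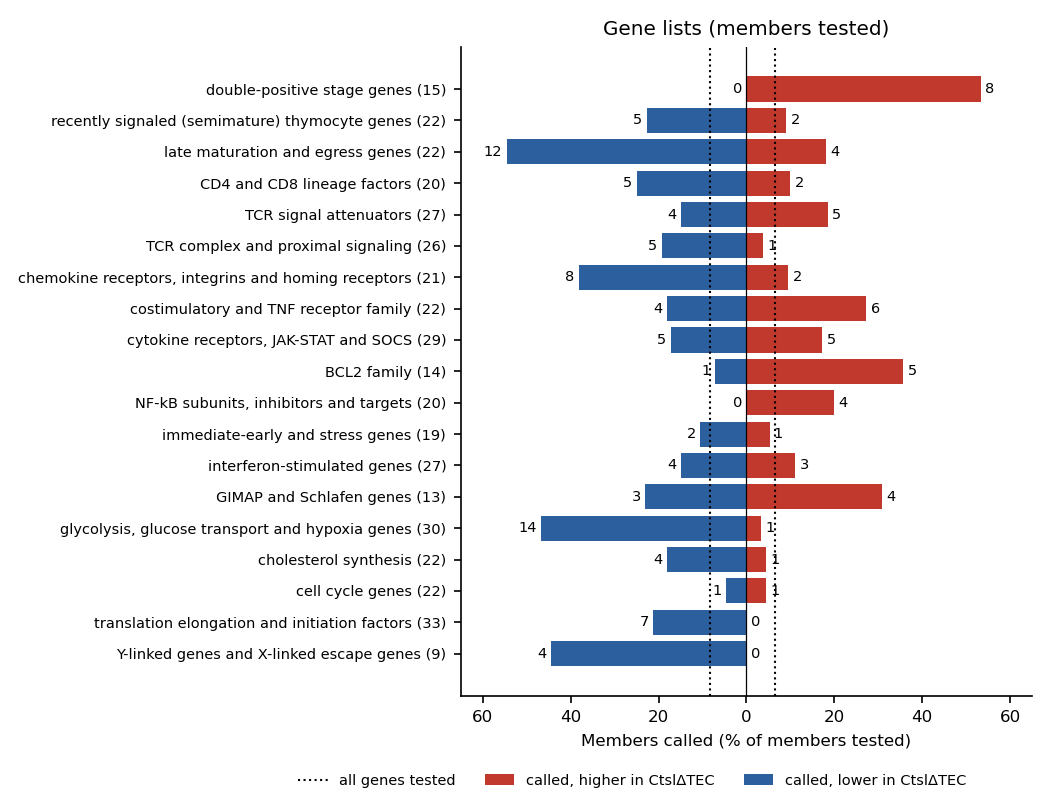
Share of tested members called higher (right, red) and lower (left, blue) in CtslΔTEC cells for 19 gene lists, with the number of members tested in parentheses and the number called beside each bar. Dotted lines mark the shares among all genes tested, 6.42% higher and 8.36% lower. Double-positive stage genes were called only as higher (8 of 15), and late maturation (12 of 22) and glycolysis genes (14 of 30) mostly as lower.

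Of 9 tested Y-linked genes and X-linked genes known to escape inactivation, 4 were lower in CtslΔTEC cells (44.4% called, against 14.8% of all genes). These were the X-linked *Kdm5c*, *Kdm6a*, *Eif2s3x* and *Pbdc1*. *Kdm5c*, a histone demethylase gene, was at 182, 157, 178, 162 and 179 CPM in CtslΔTEC mice and at 259, 258, 187 and 267 CPM in control mice, where control mouse 3 was close to the CtslΔTEC mice and the other 3 were at 258 to 267 CPM. These 4 genes had log2 fold changes of -0.11 to 0.05 with the Y-linked covariate and none was called. Without control mouse 3 as many as 8 genes of the list were called, and without any other mouse 1 or 2.

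With the mean log2 level of the Y-linked genes in the model, 430 genes (3.27%) were called, 121 higher and 309 lower. Of these, 416 had also been called without it, which is 21.4% of the calls without and 96.7% of those with the covariate, and all 416 had the same direction. Of all 1943 called genes, 1939 kept their direction, which their choice with control mouse 3 among the controls fixes in part. Over these 1943 genes the median size of the log2 fold change was 0.51 without and 0.49 with the covariate, and the median SE was 0.109 and 0.18. In this fit 5 CtslΔTEC mice and 1 control mouse stand among the libraries with Y-linked transcripts, and control mice 1, 2 and 4 have no CtslΔTEC counterpart. Sex and genotype therefore cannot be told apart for the genes that lost their call. For the genes that stayed called they are separated only through that 1 control mouse. With only the 6 libraries with Y-linked transcripts in the genotype comparison, 401 genes were called, with the spread of the lone control mouse taken to be that of the CtslΔTEC mice, and over all 13 libraries with the covariate 750 were.

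Control mouse 3 could also be placed on genes chosen without it. Between the 5 CtslΔTEC mice and control mice 1, 2 and 4, 1566 genes were called. For 1366 of these (87.2%) control mouse 3 lay outside the CtslΔTEC range on the side of the other control mice, against 36.6% of all genes tested in that fit. On a scale where 0 is the mean of the CtslΔTEC mice and 1 the mean of the other 3 control mice, its median position was 0.892, with an interquartile range of 0.622 to 1.13. Over all genes tested in that fit the median was 0.777, with an interquartile range of -0.12 to 1.555. When each of the control mice without Y-linked transcripts was left out in the same way, its median position was 0.802 for mouse 1, 0.930 for mouse 2 and 0.935 for mouse 4, with 83.4 to 87.0% of genes outside the CtslΔTEC range. Control mouse 3 was therefore within the span of the other 3 control mice in its median position. The part of sex in these positions was not tested.

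**Figure D5:**
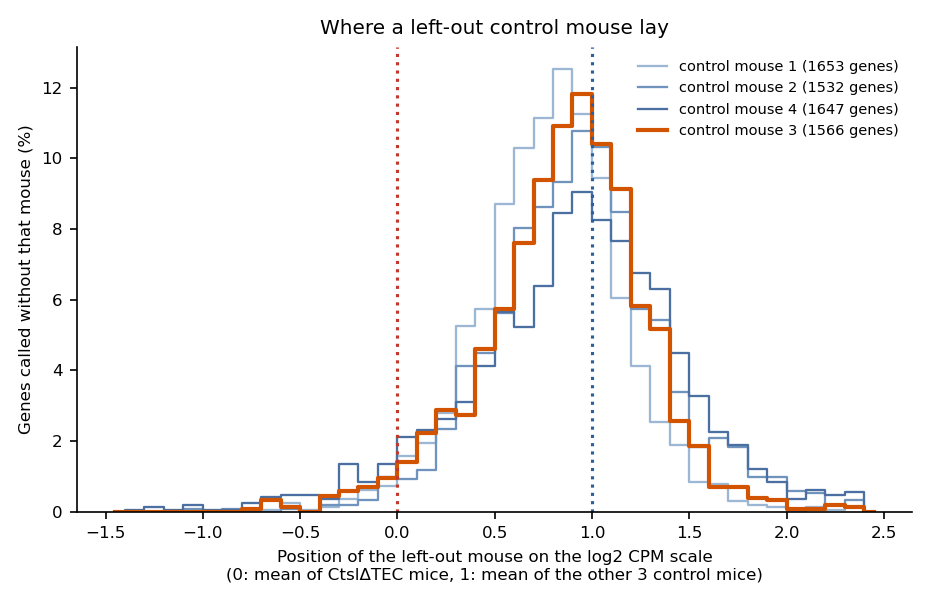
Distribution of the position of each control mouse on the genes called without it, as a percentage of those genes (vertical axis) along a log2 CPM scale that runs from 0, the mean of the 5 CtslΔTEC mice (red dotted line), to 1, the mean of the other 3 control mice (blue dotted line). Values beyond the axis are counted in its end bins. The line of control mouse 3 (orange, 1566 genes, median 0.892) overlies those of control mice 1, 2 and 4, with medians of 0.802 to 0.935.

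On the later date alone, with 3 mice per genotype, 1923 genes were called, of which 1479 had been called over both dates. All 1937 genes called over both dates that could be tested there kept their direction. The mice of the later date are among those on which the genes were called, which fixes that direction in part. Called genes were spread over the genome, from 11.4% of tested genes on chromosome 12 to 18.3% on chromosome 17 among the autosomes and 15.5% on chromosome X, whereas none of 10 tested genes on chromosome Y and none of 13 on the mitochondrial chromosome was called. Within 5 Mb of the genes with a modified allele in the crosses, 14.5% were called around *Ctsl* (11 genes) and 15.2% around *Rag1* (5 genes).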

How the data were processed

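RNA of sorted M2 cells was sequenced by a service provider. The labels give polyadenylated RNA, whereas the study's methods describe depletion of rRNA. The authors estimated counts and TPM per transcript with kallisto 0.48 against Ensembl transcripts of GRCm39 and deposited both without pooling mice. The deposited estimated counts are not normalized, and the deposited TPM values are scaled for length and library size. Of 117497 transcripts, 116343 were paired with a gene through GENCODE M21 (GRCm38), whose coordinates are given, and unpaired ones held 0.454 to 0.489% of counts. Estimated counts were summed to genes, rounded, and tested in R 4.3.3 with edgeR 4.0.16 (filterByExpr, TMM, quasi-likelihood, Benjamini-Hochberg, adjusted p under 0.1, the study's threshold). The stimulated contrast came from a 4-group fit of 13 libraries. Single values were compared by two-sided exact permutation over 126 splits, whose smallest p is 0.00794. Mice are separate animals, and p-values describe the spread between them. On data simulated with these depths and the spread of these libraries, edgeR recovered 60 of 62 genes changed 2-fold and 61 of 76 changed 1.5-fold at a mean of 100 counts or more. Under 100 counts it recovered 8 of 38 and 1 of 24, with 15 false calls in all.

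The libraries, gene lists, named genes and tests were chosen with earlier results of these data known, so no list is independent evidence. Named were 12 leading genes per direction (called, mean of at least 1 log2 CPM, no overlap, same direction on the later date, without Y-linked genes, TCR segments and predicted genes named Gm or Rik), up to 4 called members per list with the smallest p, design checks, and genes the study names. Others given with a value were chosen after their values were seen. Alternatives were DESeq2 1.42.0, other scalings and filters, an offset for length, protein-coding genes alone, date, mouse number and Y-linked level as terms, subsets of libraries and leaving out each mouse. A restriction to the libraries with Y-linked transcripts among all 13 was added after the data were seen. *Xist* was not analysed here, and a few list members are counted in their lists but not reported by name.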

Additional observations from a re-analysis of the deposited data

Results flagged for a closer look

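Among 208 groups of 4 or 5 mice checked, 10 held a mouse whose gap to the nearest other exceeded Dixon's critical value, and chance gives about 1 in 20, or 10.4. Control mouse 2 stood apart for *Tmie* (28.0 CPM against 46.8 to 49.6) and for *Rag2* (0.0 against 0.228 to 0.305). Control mouse 4 stood apart for *Nr4a1* (133.6 CPM against 51.8 to 57.2), *Btg1* (1091 against 866 to 878) and *Ldha* (678.5 against 590.1 to 602). Control mouse 3 stood apart for *Kdm5c* (186.8 CPM against 258 to 267) and *Bcl2a1d* (0.876 against 0.542 to 0.576). In CtslΔTEC mouse 1 the levels of *Bcl3* (7.58 CPM against 3.94 to 4.75) and *Eif2s3x* (163.4 against 192.5 to 203) stood apart, and in CtslΔTEC mouse 4 that of *Ccr8* (0.0307 against 0.128 to 0.156), which rests on 1 count.

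For 6 named genes the genotypes differed in opposite directions, without overlap, in unstimulated and in stimulated cells, where there were 2 mice per genotype. With so few mice a lack of overlap is common by chance, and its share over all genes was not counted. The difference between the contrasts was not tested. The BH3-only genes *Bcl2l11* (0.53 unstimulated, -0.68 stimulated) and *Bmf* (1.12 and -1.46) were higher in unstimulated and lower in stimulated CtslΔTEC cells. The same order held for *Nfkbie* (0.30 and -0.59), *Ly6e* (0.81 and -0.35) and *Insig1* (0.26 and -0.72), whereas *Hsph1* was -0.72 before and 0.31 after stimulation. All values are log2 fold changes of CtslΔTEC over control cells, and after stimulation those of *Bcl2l11*, *Bmf*, *Nfkbie* and *Insig1* were called. Those of *Ly6e* (adjusted p = 0.196, edgeR) and *Hsph1* (adjusted p = 0.387, edgeR) were not. Stimulated *Ly6e* was at 92.5 to 102.9 CPM in CtslΔTEC and 103.8 to 148.7 CPM in control mice.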

How the results depend on the processing

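The count of 1943 called genes stayed within 1.5 times under DESeq2 (2289, of which 1903 were shared), library totals, upper-quartile scaling (1959), a minimum of 10 counts (1846), no filter (1713), protein-coding genes alone (1906), an offset for length (1650), all 13 libraries (1729), date as a factor (2710), the later date alone (1923) and an adjusted p under 0.05 (1363, with 542 higher). Leaving out each mouse gave 1532 to 2344 genes, 631 to 1004 higher and 887 to 1340 lower. Fits that used the Y-linked level moved the count most. The covariate gave 430 genes (121 higher, 309 lower), the same over 13 libraries 750 (241 and 509), the libraries with Y-linked transcripts alone 401 (124 and 277), and those among all 13 libraries, added after the data were seen, 375 (113 and 262). With mouse number as a replicate block 1056 genes were called (417 higher, 639 lower), 1015 of them shared. The deviations of same-numbered mice correlated at -0.155, 0.348, -0.097 and -0.138 for numbers 1 to 4, so the numbers do not pair the mice. For named genes, 1795 of 1875 values in fits without Y-linked terms or block kept their direction and side of the threshold, and no called gene changed direction. *Pdcd1*, not called, went from -0.09 to 0.014 without CtslΔTEC mouse 1, and *Nr4a1*, not called, from -0.35 to 0.099 without control mouse 4, 0.26 with the Y-linked covariate, 0.165 in libraries with Y-linked transcripts and 0.169 in those of 13. *Ddx3y*, itself Y-linked and not called, went from 2.12 to -0.06 with the covariate. Called genes whose direction reversed, the cause of which was not tested, were *Hspa1a* (1.47 with the covariate, 2.95 in libraries with Y-linked transcripts, 2.94 in those of 13), *Kdm6a* (0.013, 0.013 and 0.015, and 0.053 over 13 libraries), *Eif2s3x* (0.042, 0.045 and 0.047, and 0.031) and *Pbdc1* (0.049, 0.041 and 0.044).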
